A study of Mus musculus with 24 samples.

Results

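The genes described here encode 8 cell-surface signalling molecules of a dendritic cell (DC) that raise or lower immune responses, most of them by acting on T cells: Cd40, Cd80, Cd86, Icosl, Cd274, Pdcd1lg2, Cd276 and Cd200. They were chosen by symbol, matched to 8 of the 55414 Ensembl gene lines of the count files, and all 8 passed the filter on low counts in every model. Cd40, Cd80, Cd86 and Icosl were grouped as activating and Cd274, Pdcd1lg2, Cd276 and Cd200 as inhibitory. Messenger RNA was sequenced from mouse DCs grown from bone marrow of C57BL/6JRj wild-type or Cas9-EGFP animals, and which libraries had which genotype was not given. GM cultures received 20 ng/ml GM-CSF and were sampled at day 8 (t0) or after a further 24 h with the solvent DMSO or with AZD5582 at 0.1, 0.5 or 1 µM. FL cultures received FLT3L at 200 ng/ml beside GM-CSF at 20 ng/ml, and were sampled at day 16 (t0) or after 24 h with DMSO or with AZD5582 at 0.05 µM. Each of these 8 groups held 3 libraries, 24 in all. The GM libraries are replicates 1, 2 and 3 of a single culture number and the FL libraries come from cultures numbered 91, 94 and 95. The series calls them biological replicates, but no source used here says that the GM replicates came from separate animals, so p-values measure the spread between these libraries, part of which may be technical.

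AZD5582 is a SMAC mimetic, a compound that antagonises IAPs (inhibitors of apoptosis). Loss of cellular IAPs stabilises the kinase NIK and releases non-canonical NF-kB signalling, the same branch that CD40 uses when CD40 ligand on a T cell engages it. CD80 and CD86 bind CD28, which co-stimulates T cells, and CTLA-4, which restrains them. ICOS ligand, the product of Icosl, binds ICOS on activated T cells. PD-L1 (Cd274) and PD-L2 (Pdcd1lg2) bind PD-1 and dampen T cell signalling, B7-H3 (Cd276) is a B7 family member most often described as inhibitory, and CD200 restrains myeloid cells through its receptor CD200R1. DCs raise many of these genes together as they mature.

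Each library held between 27012555 and 85820558 counts on genes. The DC list (Flt3, Zbtb46, Itgax, H2-Ab1, Cd74 and Ccr7) was detected in every group, with a summed level of 12500.0 to 15500.0 CPM (counts scaled to library size) in GM DMSO libraries and 10340.0 to 16320.0 CPM in FL DMSO libraries. At 1 µM in GM cultures it summed to 12870.0 to 16320.0 CPM, and 3 of its 6 genes rose and 3 fell, beside 26.9% and 28.2% of all genes. At 0.05 µM in FL cultures it summed to 9940.0 to 14340.0 CPM and none of the 6 passed the test, beside 1.62% of all genes higher and 1.28% lower. At t0 the sums were 12880.0 to 14400.0 CPM in GM and 18310.0 to 23420.0 CPM in FL libraries. Xcr1 and Clec9a, defining genes of type 1 conventional DCs, averaged 212 and 114 CPM in FL cultures at t0, and neither averaged 1 CPM in any GM group. The whole list of 7 such genes summed to 779 to 923 CPM in GM DMSO and 2026 to 2174 CPM at 1 µM, most of it Irf8 (655 ± 68.5 and 1984 ± 78.6 CPM, SD, n = 3 each). Of its 6 tested genes Irf8 and Batf3 rose and Itgae and Wdfy4 fell there, and Xcr1 was at 0 counts at 1 µM. In FL cultures the list summed to 902 to 1678 CPM in DMSO and 1614 to 3747 CPM at 0.05 µM, where Xcr1 and Cadm1 fell and none of the 7 rose. Markers of other cells also moved with the treatment. All 10 monocyte and macrophage markers were detected throughout, and their summed level was 28580.0 to 35010.0 CPM in GM DMSO libraries against 3866 to 5104 CPM at 1 µM, and 898 to 1509 CPM in FL DMSO libraries against 327 to 738 CPM at 0.05 µM. In GM libraries at t0 these markers summed to 19120.0 to 24490.0 CPM, below all GM DMSO libraries. The 8 neutrophil markers summed to 346 to 573 CPM in GM DMSO and 6.03 to 13.3 CPM at 1 µM, with Elane at 0 counts there, and to 1969 to 9602 and 167 to 3529 CPM in the same FL groups. The 4 plasmacytoid DC markers summed to 158 to 219.8 CPM in GM DMSO and 440.1 to 522 CPM at 1 µM, where Tcf4, Spib and Ly6d rose and Siglech, a defining marker, fell to 0 counts. The 6 mast cell and basophil markers summed to 96.3 to 151 CPM in GM DMSO and 124 to 203 CPM at 1 µM. In FL cultures they summed to 628 to 1415 CPM in DMSO and 308 to 1531 CPM at 0.05 µM. At t0 their sums were 33.8 to 45.8 CPM in GM and 192 to 731 CPM in FL libraries. The T and NK cell, B cell and stromal lists stayed below 30 CPM in every library. At 1 µM in GM cultures all 4 B cell markers rose, beside 26.9% of all genes. Their sum was 2.78 to 5.94 CPM in DMSO and 13.2 to 16.0 CPM at 1 µM. All 5 tested stromal markers and 1 of 3 tested T and NK cell markers fell there, beside 28.2% of all genes. At 0.05 µM in FL cultures 1 of 5 tested T and NK cell markers fell, and no B cell or stromal marker passed. The part of these shifts in the results below was not tested, and in bulk RNA fewer cells of a type cannot be told apart from less RNA per cell.

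Levels are given as CPM after TMM scaling, a correction for differences in library composition. Per kilobase of merged exon, Cd274 had the highest mean of the 8 genes in GM DMSO (83.7 CPM per kb), followed by Cd86 at 31.9, Icosl at 31.6, Pdcd1lg2 at 29.6, Cd200 at 24.9, Cd40 at 18.8, Cd80 at 13.9 and Cd276 at 1.05. At 1 µM the order on the same scale was Cd200 (175), Cd274 (165), Cd86 (159), Cd40 (109.9), Cd80 (79.0), Pdcd1lg2 (30.04), Icosl (15.2) and Cd276 (0.886). Cd200 thus moved from the fifth place to the first and Icosl from the third to the seventh. In FL cultures Cd86 led at t0 with 83.6 CPM per kb and Cd274 led at 0.05 µM with 225. Some exon bases of Cd274 (14.1%) and Cd276 (11.4%) lie opposite another gene in the annotation used for lengths, AC119228.1 and Gm10657, and no source here gives the strand setting of the counting, so the levels of both are uncertain to that extent.

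**Figure D1:**
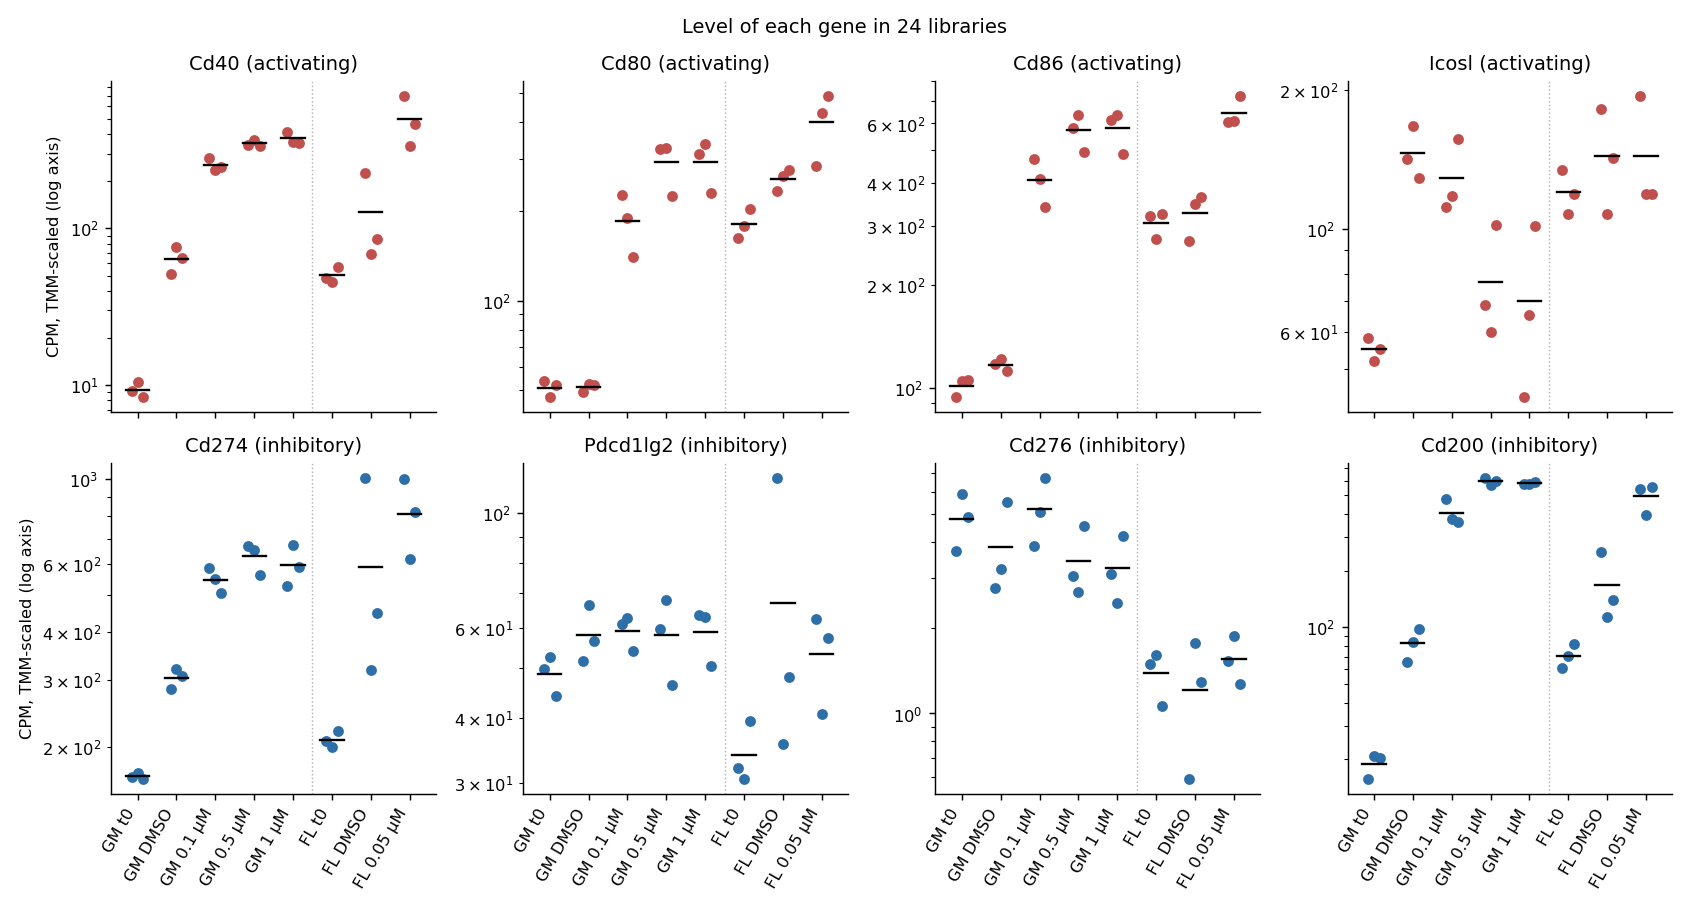
Level of each gene (CPM after TMM scaling, log axis) in the 24 libraries of 8 groups, with activating genes in red, inhibitory genes in blue and a bar at each group mean. Cd40, Cd80, Cd86, Cd274 and Cd200 stand higher at all 3 GM doses than in GM DMSO, while Pdcd1lg2 overlaps between these groups and Icosl is lower at 0.5 and 1 µM.

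AZD5582 raised Cd40, Cd80 and Cd86, the activating receptor and the CD28 ligands, at every dose in GM cultures. Cd40 stood at 51.1, 76.4 and 64.6 CPM in the 3 DMSO libraries, at 281, 237 and 247 CPM with 0.1 µM, 343, 364 and 337 CPM with 0.5 µM and 415, 357 and 351 CPM with 1 µM. Every treated library was above every DMSO library. The log2 difference from DMSO was 2.06 (SE 0.13, adjusted p = 2.20e-09) at 0.1 µM, 2.53 (SE 0.14, adjusted p = 7.82e-11) at 0.5 µM and 2.66 (SE 0.14, adjusted p = 3.91e-11) at 1 µM, by the quasi-likelihood test of edgeR, with p-values adjusted by Benjamini-Hochberg over the genes tested, which gives each adjusted p below.

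Cd80, which binds CTLA-4 and CD28, stood at 49.5, 52.6 and 52.3 CPM in DMSO libraries, 226, 189 and 140.2 CPM at 0.1 µM, 325, 327 and 226 CPM at 0.5 µM and 311, 336 and 231 CPM at 1 µM. Replicate 3 was the lowest library at each dose and still above all DMSO libraries. Its log2 difference was 1.92 (SE 0.18, adjusted p = 2.31e-07), 2.60 (SE 0.18, adjusted p = 3.47e-09) and 2.62 (SE 0.18, adjusted p = 2.80e-09) at the 3 doses in turn. Cd86, the other CD28 ligand, read 118, 122 and 112 CPM in DMSO libraries and 472, 411 and 341, then 584, 637 and 496, then 615, 637 and 489 CPM at 0.1, 0.5 and 1 µM. Here too replicate 3 was lowest at each dose without reaching the DMSO libraries. The log2 differences were 1.87 (SE 0.14, adjusted p = 7.24e-09), 2.39 (SE 0.14, adjusted p = 1.74e-10) and 2.42 (SE 0.14, adjusted p = 1.05e-10).

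Icosl went the other way. Its DMSO libraries held 142, 167 and 129 CPM, and those at 0.1, 0.5 and 1 µM held 112, 118 and 157, 68.5, 59.97 and 102 and 43.3, 65.2 and 102 CPM. The groups overlapped at 0.1 µM and did not at 0.5 and 1 µM, where replicate 3 was the highest. Icosl did not pass the test at 0.1 µM, with a log2 difference of -0.11 (95% interval -0.63 to 0.41, adjusted p = 0.759), and fell by 0.83 on the log2 scale at 0.5 µM (SE 0.24, adjusted p = 0.00967) and by 0.96 at 1 µM (SE 0.25, adjusted p = 0.00389).

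Of the inhibitory genes, Cd274 and Cd200 rose and Pdcd1lg2 and Cd276 did not pass the test at any dose. Cd200 had the largest log2 difference of the 8 genes at every dose. It stood at 65.4, 84.2 and 98.0 CPM in DMSO libraries and at 477, 374 and 359.9, 621, 566 and 593 and 578, 577 and 591 CPM at 0.1, 0.5 and 1 µM, with no overlap between treated and DMSO libraries. The log2 differences were 2.36 (SE 0.15, adjusted p = 1.35e-09), 2.94 (SE 0.15, adjusted p = 4.60e-11) and 2.93 (SE 0.15, adjusted p = 3.81e-11), which is 7.60-fold at 1 µM. Cd200r1, the receptor of CD200, moved in the opposite direction in the same cultures, from 109.9 ± 6.71 CPM (SD, n = 3) in DMSO to 15.7 ± 1.65 CPM (SD, n = 3) at 1 µM, a log2 difference of -2.70 (adjusted p = 3.63e-10).

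Cd274 read 283, 319.6 and 306 CPM in DMSO libraries, 586, 551 and 506 CPM at 0.1 µM, 671, 653 and 564 CPM at 0.5 µM and 526, 673 and 591 CPM at 1 µM, again with no overlap. Its log2 difference was 0.92 (SE 0.10, adjusted p = 1.02e-06), 1.15 (SE 0.10, adjusted p = 3.38e-08) and 1.08 (SE 0.10, adjusted p = 6.33e-08), or 1.90-, 2.22- and 2.12-fold. Pdcd1lg2, the other PD-1 ligand, read 51.7, 66.3 and 56.4 CPM in DMSO libraries and 63.3, 63.0 and 50.4 CPM at 1 µM, within the same range. Its log2 difference at 1 µM was 0.13 (95% interval -0.16 to 0.42, adjusted p = 0.453), and those at 0.1 and 0.5 µM were 0.096 (95% interval -0.20 to 0.39, adjusted p = 0.622) and 0.09 (95% interval -0.20 to 0.38, adjusted p = 0.611). The upper ends of all 3 intervals lay below the lower end of that of Cd274 at 1 µM (0.87), though the difference between the genes was not tested. Cd276 was low throughout, at 2.77, 3.22 and 5.53 CPM in DMSO libraries and 3.08, 2.45 and 4.20 CPM at 1 µM. Its log2 differences of 0.53 (95% interval -0.074 to 1.14, adjusted p = 0.156), -0.061 (95% interval -0.67 to 0.55, adjusted p = 0.877) and -0.12 (95% interval -0.74 to 0.50, adjusted p = 0.752) did not pass the test, and at 0.1 µM it passed when replicate 3 of DMSO was left out, at 0.88 (adjusted p = 0.024).

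The genes of PD-L1 and PD-L2 are neighbours on chromosome 19, and their RefSeq promoter windows start 43481 bases apart. The windows, 250 bases before to 50 bases after each gene's start on build GRCm38.p6, are shown because of these adjacent ligands of PD-1 Cd274 passed the test in GM cultures and Pdcd1lg2 did not, with that of Cd80, which rose with Cd274, and that of Cd200, which had the largest rise. Sequences were matched for 6 of the 8 genes. Both strands were searched for the NF-kB consensus, for the interferon-stimulated response element core GAAANNGAA and for the gamma-activated site TTCNNNGAA, and matches are in capitals. The windows are chr19:29367188-29367487 (plus strand) for Cd274, chr19:29410669-29410968 (plus strand) for Pdcd1lg2, chr16:38458683-38458982 (plus strand) for Cd80 and chr16:45409004-45409303 (minus strand) for Cd200.
Cd274: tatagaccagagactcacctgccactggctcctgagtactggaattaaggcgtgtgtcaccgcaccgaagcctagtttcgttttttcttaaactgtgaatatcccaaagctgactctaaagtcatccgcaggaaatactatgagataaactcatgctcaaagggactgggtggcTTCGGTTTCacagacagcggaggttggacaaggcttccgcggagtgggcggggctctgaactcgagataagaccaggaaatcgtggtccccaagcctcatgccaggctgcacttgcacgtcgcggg
Pdcd1lg2: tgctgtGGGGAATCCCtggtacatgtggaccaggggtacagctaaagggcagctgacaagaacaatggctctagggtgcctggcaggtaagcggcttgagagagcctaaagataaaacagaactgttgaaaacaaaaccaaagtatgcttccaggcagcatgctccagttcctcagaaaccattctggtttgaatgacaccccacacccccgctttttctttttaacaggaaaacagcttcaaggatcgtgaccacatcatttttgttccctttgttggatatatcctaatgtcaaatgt
Cd80: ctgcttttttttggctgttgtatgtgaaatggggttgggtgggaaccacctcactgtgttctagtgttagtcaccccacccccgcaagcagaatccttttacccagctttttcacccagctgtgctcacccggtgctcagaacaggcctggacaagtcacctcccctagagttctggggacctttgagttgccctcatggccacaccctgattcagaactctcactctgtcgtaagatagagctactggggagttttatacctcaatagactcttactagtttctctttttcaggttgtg
Cd200: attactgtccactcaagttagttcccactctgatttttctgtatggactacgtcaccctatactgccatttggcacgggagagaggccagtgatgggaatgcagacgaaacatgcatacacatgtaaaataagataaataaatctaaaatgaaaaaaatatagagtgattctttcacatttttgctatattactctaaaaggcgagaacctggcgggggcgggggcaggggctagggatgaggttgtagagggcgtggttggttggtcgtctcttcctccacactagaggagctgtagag
The Cd274 window held 1 match to GAAANNGAA, read on the opposite strand and starting 76 bases before the gene's start. The Pdcd1lg2 window held 1 stretch that matches the NF-kB consensus on both strands, 244 bases before the start, and the windows of Cd80, Cd200, Icosl and Cd276 held no match to any of the 3 motifs. Among all 32851 promoter windows of 300 bases, 4.51% held the NF-kB consensus, 8.56% the GAAANNGAA core and 8.30% TTCNNNGAA. No value here tests whether any of these letters is bound.

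Counted by role, 3 of 4 activating genes rose at 0.1 µM and none fell, while 2 of 4 inhibitory genes rose and none fell. With 0.5 or 1 µM, 3 activating genes rose and 1 fell, and 2 inhibitory genes rose and none fell. Among all 16152 genes tested, 19.9% were higher and 20.3% lower with 0.1 µM. With 0.5 µM these shares were 25.8% and 27.7%. With 1 µM they reached 26.9% and 28.2%. The median log2 difference at 1 µM was 2.52 over the activating genes and 0.61 over the inhibitory ones, beside -0.00500 over all genes. Each median is over 4 genes that lay far apart. The activating ones ran from -0.96 (Icosl) to 2.66 (Cd40) and the inhibitory ones from -0.12 (Cd276) to 2.93 (Cd200). The 3 doses were compared with the same DMSO libraries.

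Ratios within a library set Cd80 and Cd86 beside the PD-1 ligands without a test, and do not cover the 2 roles as a whole. Cd200, an inhibitory gene outside these pairs, rose more than Cd80 and Cd86 at every dose (2.93 beside 2.62 and 2.42 at 1 µM). Icosl, an activating gene that fell at 0.5 and 1 µM, was also outside them. The log2 ratio of Cd86 to Cd274 was -1.37 ± 0.097 in GM DMSO libraries (SD, n = 3), -0.43 ± 0.13 at 0.1 µM, -0.14 ± 0.092 at 0.5 µM and -0.042 ± 0.25 at 1 µM. For Cd80 to Cd274 it was -2.56 ± 0.044 in DMSO and -1.04 ± 0.30 at 1 µM. Against Pdcd1lg2, the ratio of Cd80 went from -0.17 ± 0.15 to 2.30 ± 0.11 and that of Cd86 from 1.02 ± 0.16 to 3.30 ± 0.036. At t0 the GM ratios to Cd274 were -1.72 ± 0.12 for Cd80 and -0.73 ± 0.094 for Cd86, above those in DMSO. In FL cultures the ratio of Cd80 to Cd274 was -1.03 ± 0.96 in DMSO and -1.03 ± 0.69 at 0.05 µM, higher with the drug in culture 91 and lower in cultures 94 and 95, and that of Cd86 to Cd274 was -0.69 ± 1.07 and -0.31 ± 0.37. In GM cultures the ratio of Cd80 to Cd86 stayed within 1 SD, at -1.16 ± 0.12 at 0.1 µM beside -1.18 ± 0.082 in DMSO, and reached -0.998 ± 0.079 at 1 µM.

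**Figure D2:**
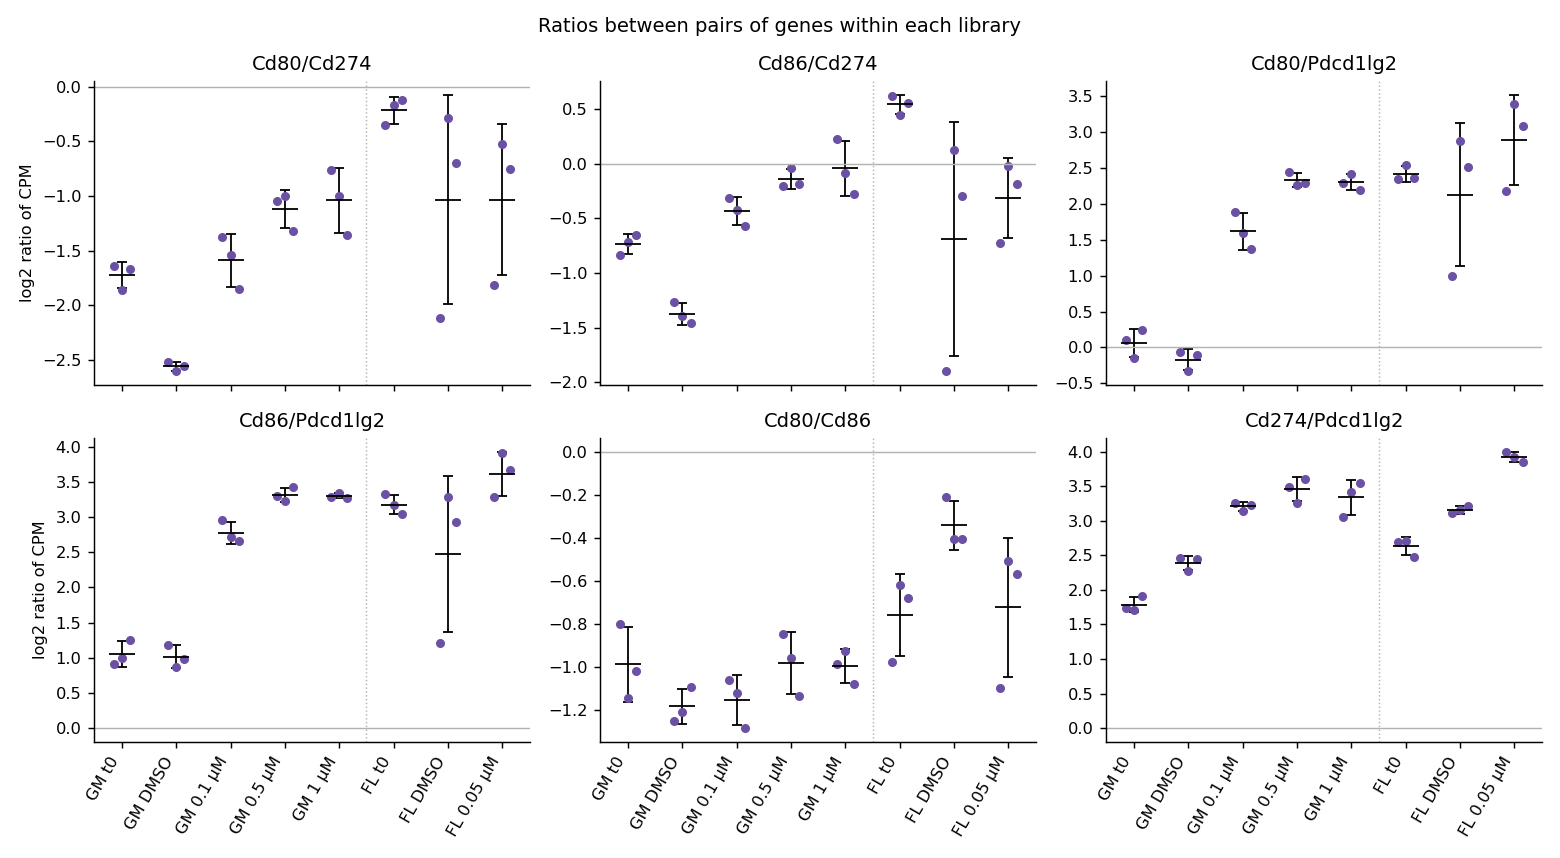
Log2 ratio of the CPM of pairs of genes in each library, by group, with the mean and SD of 3 libraries. In GM cultures the ratios of Cd80 and Cd86 to Cd274 and to Pdcd1lg2 are higher at every dose than in DMSO, and in FL cultures the 3 DMSO libraries spread widely in all ratios but Cd80 to Cd86 and Cd274 to Pdcd1lg2.

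For the 5 genes that rose, most of the rise was reached at the lowest GM dose. From 0.1 to 0.5 µM Cd40, Cd80, Cd86 and Cd200 rose by a further 0.47 (SE 0.13), 0.68 (SE 0.17), 0.51 (SE 0.13) and 0.58 (SE 0.14) on the log2 scale, with adjusted p = 0.0235, 0.0164, 0.0157 and 0.0107. Cd274 and Icosl did not pass, at 0.23 (SE 0.10, adjusted p = 0.181) and -0.72 (SE 0.24, adjusted p = 0.0733). Of all genes, 2.98% were higher and 8.47% lower in this step. None of the 4 calls held without replicate 2 or without replicate 3 at 0.1 µM, where the adjusted p-values were 0.116 and 0.107 for Cd40, 0.0521 and 0.0923 for Cd80, 0.057 and 0.114 for Cd86, and 0.0653 and 0.0807 for Cd200. Cd40, Cd80 and Cd86 were lost too without replicate 1 or replicate 2 at 0.5 µM, at adjusted p-values between 0.0556 and 0.0841. Without replicate 3 at 0.5 µM Icosl passed, at -0.97 (adjusted p = 0.0269). From 0.5 to 1 µM no member passed the test, and by edgeR 0% of all genes were higher and 0% lower (0 called), although 870 genes and none of the 8 had an unadjusted p under 0.05 and DESeq2 called 8 genes.

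**Figure D3:**
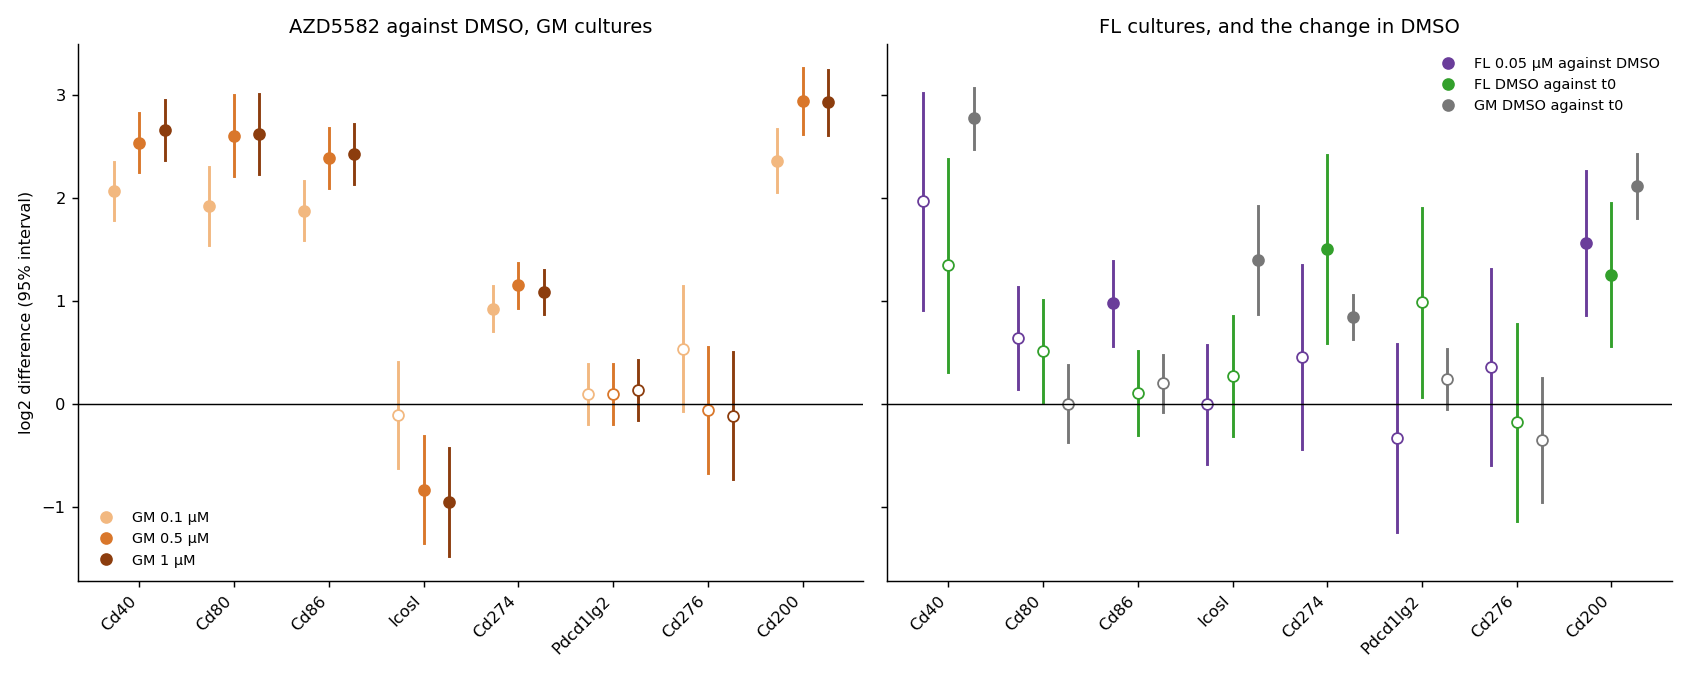
Log2 differences with 95% intervals for the 8 genes, AZD5582 against DMSO at 3 doses in GM cultures on the left, and on the right the FL treatment and the changes in DMSO from t0, with filled points called at an adjusted p under 0.05 and open points not called. Cd200 and Cd40 lie highest at 1 µM (2.93 and 2.66), Icosl is the gene below 0 that passed, and the FL intervals are wider than the GM ones.

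Several of these genes also changed over 24 h in DMSO, so GM cultures in DMSO were compared with those at t0. No group was kept for 24 h without DMSO, so time and solvent cannot be told apart in either culture type. Cd40 rose from 9.17, 10.4 and 8.38 CPM at t0 to the DMSO values given above, a log2 difference of 2.77 (SE 0.14, adjusted p = 3.39e-11), and Cd200 from 15.8, 20.8 and 20.3 CPM, by 2.11 (SE 0.15, adjusted p = 2.10e-09). Icosl rose from 58.3, 51.9 and 55.1 CPM by 1.40 (SE 0.25, adjusted p = 0.000281) and Cd274 from 167, 172 and 166 CPM by 0.84 (SE 0.10, adjusted p = 2.38e-06). None of these groups overlapped with their DMSO libraries.

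The CD28 ligands did not pass the test. Cd80 stood at 53.7, 47.4 and 52.0 CPM at t0, the same range as in DMSO, with a log2 difference of 0.0008 (95% interval -0.37 to 0.37, adjusted p = 0.998). Cd86 stood at 93.6, 104.8 and 106 CPM at t0, below all its DMSO libraries, with a difference of 0.20 (95% interval -0.08 to 0.47, adjusted p = 0.236). Pdcd1lg2 at 0.24 (95% interval -0.05 to 0.53, adjusted p = 0.164) and Cd276 at -0.36 (95% interval -0.96 to 0.25, adjusted p = 0.329) did not pass either. In all, 2 activating and 2 inhibitory genes rose and none fell, beside 27.2% of all genes higher and 20.3% lower. At 1 µM Icosl, at 70.1 ± 29.5 CPM (SD, n = 3), overlapped its t0 level of 55.1 ± 3.17 CPM (SD, n = 3).

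In FL cultures Cd86 and Cd200 rose with 0.05 µM AZD5582 in the unpaired fit, where the other 6 genes did not pass the test. The fit paired by culture number called Cd40 as well, as given below. Cd86 stood at 270.4, 347 and 365 CPM in DMSO and 605, 611 and 723 CPM at 0.05 µM in cultures 91, 94 and 95, with no overlap and a log2 difference of 0.98 (SE 0.18, adjusted p = 0.0338). Cd200 stood at 252, 113 and 139.7 and 544, 396 and 554 CPM, again with no overlap, and differed by 1.56 (SE 0.31, adjusted p = 0.0376). Of all 15961 genes tested, 1.62% were higher and 1.28% lower.

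Cd40 moved in the same direction in every culture but its DMSO libraries were far apart. It stood at 227, 68.4 and 85.6 CPM in DMSO and 697, 336 and 461 CPM at 0.05 µM, that is 3.07-, 4.92- and 5.38-fold within cultures 91, 94 and 95. Its log2 difference was 1.97 (95% interval 0.91 to 3.02, adjusted p = 0.0635). With the culture number as a replicate block, the paired value was 2.07 (adjusted p = 0.0168), past the threshold, and the same fit called 3 members and 1098 genes, against 2 and 463 unpaired. DESeq2 also called Cd40 here, at 1.99 (adjusted p = 0.00118).

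Cd80, at 234, 262 and 275 CPM in DMSO and 283, 429 and 488 CPM at 0.05 µM, was 1.21-, 1.64- and 1.77-fold higher within the 3 cultures and differed by 0.63 (95% interval 0.14 to 1.13, adjusted p = 0.174). Cd274 read 1009, 319 and 448 CPM in DMSO and 998, 618 and 823 CPM at 0.05 µM. Culture 91 was already high in DMSO and did not rise further, while cultures 94 and 95 were 1.94- and 1.84-fold higher, and the log2 difference was 0.45 (95% interval -0.44 to 1.35, adjusted p = 0.606). Pdcd1lg2 was also highest in culture 91 in DMSO, at 117, 35.7 and 48.2 CPM in DMSO and 62.3, 40.8 and 57.2 CPM at 0.05 µM. Within the cultures it was 0.532-fold in culture 91 and 1.14- and 1.19-fold in cultures 94 and 95, with a log2 difference of -0.33 (95% interval -1.24 to 0.58, adjusted p = 0.724). Icosl at -0.0055 (95% interval -0.59 to 0.57, adjusted p = 0.994) and Cd276 at 0.35 (95% interval -0.60 to 1.31, adjusted p = 0.717) did not pass.

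The DMSO library of culture 91 decided much of this. It held the highest Cd40, Icosl, Cd274, Pdcd1lg2 and Cd200 of the FL DMSO group and the lowest Cd80, Cd86 and Cd276, and its neutrophil markers summed to 1969 CPM against 9602 and 3847 CPM in cultures 94 and 95. Without culture 91, whose 3 libraries were left out after seeing the data, 5 members passed: Cd40 at 2.41 (adjusted p = 0.00108), Cd80 at 0.81 (adjusted p = 0.0109), Cd86 at 0.94 (adjusted p = 0.00894), Cd274 at 0.96 (adjusted p = 0.0222) and Cd200 at 1.95 (adjusted p = 0.00168). Without its DMSO library alone Cd40, Cd86, Cd274 and Cd200 passed. The call of Cd86 was lost with scaling by library totals, at 0.79 (adjusted p = 0.117). The calls of Cd86 and Cd200 were lost in a fit without the t0 libraries, where no member passed, and without the DMSO library of culture 94 (adjusted p = 0.0754 and 0.0947) or 95 (0.11 and 0.16), and without the treated library of culture 91 (0.0614 and 0.0902) or 95 (0.13 and 0.142).

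**Figure D4:**
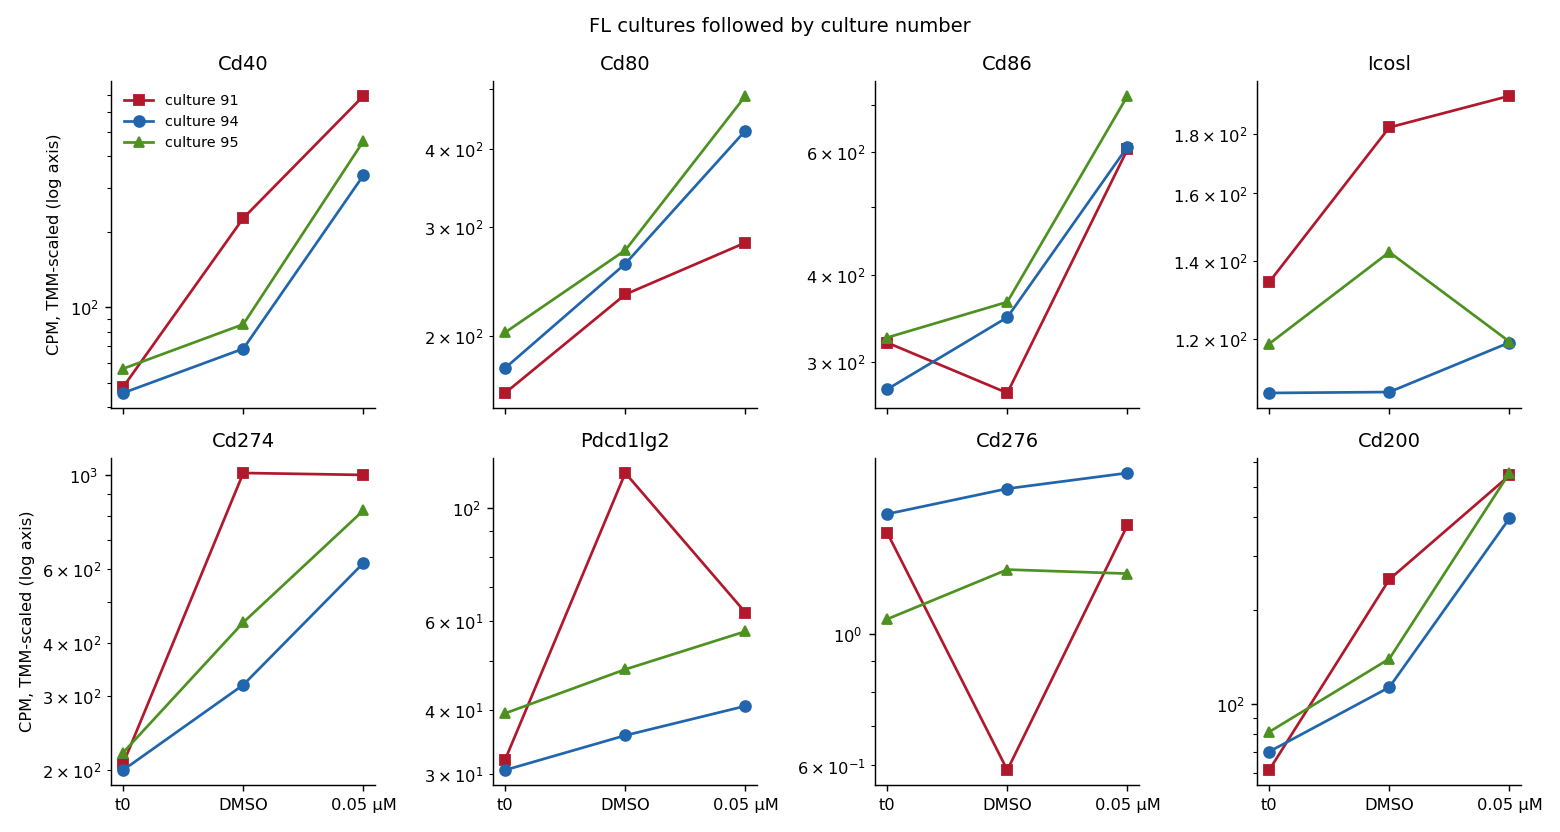
Level of each gene (CPM after TMM scaling, log axis) at t0, in DMSO and at 0.05 µM AZD5582, with a line for each of FL cultures 91, 94 and 95. Cd40, Cd80, Cd86 and Cd200 rise from DMSO to 0.05 µM along all 3 lines, and culture 91 stands apart in DMSO for Cd40, Cd274, Pdcd1lg2 and Cd276.

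During the 24 h in DMSO, Cd274 and Cd200 rose in FL cultures. At t0 Cd274 stood at 208, 200.4 and 220.4 CPM and Cd200 at 61.2, 70.1 and 81.2 CPM, below all their DMSO libraries, and the log2 differences were 1.504 (SE 0.40, adjusted p = 0.0487) and 1.25 (SE 0.31, adjusted p = 0.0389). Of all genes 4.96% were higher and 5.18% lower. Cd40 did not pass at 1.34 (95% interval 0.31 to 2.38, adjusted p = 0.0919) and passed in the paired fit with the replicate block at 1.13 (adjusted p = 0.0469), within which 3107 genes were called against 1619.

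The other genes did not pass: Pdcd1lg2 at 0.98 (95% interval 0.065 to 1.90, adjusted p = 0.146), Cd80 at 0.51 (95% interval 0.014 to 1.004, adjusted p = 0.158), Icosl at 0.27 (95% interval -0.31 to 0.85, adjusted p = 0.518), Cd86 at 0.10 (95% interval -0.31 to 0.51, adjusted p = 0.741) and Cd276 at -0.18 (95% interval -1.14 to 0.77, adjusted p = 0.805). Without the DMSO library of culture 91, neither call held, at 0.86 (adjusted p = 0.0586) for Cd274 and 0.83 (adjusted p = 0.0508) for Cd200. Both were also lost without any 1 of the 3 t0 libraries (adjusted p = 0.17, 0.138 and 0.138 for Cd274 and 0.159, 0.113 and 0.104 for Cd200, in cultures 91, 94 and 95) or the DMSO library of culture 95 (0.0675 and 0.0605).

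Before any treatment the culture types differed in 6 of the 8 genes in the model of all 24 libraries. At t0 all 4 activating genes were higher in FL than in GM cultures. Cd40 stood at 48.1, 45.6 and 57.0 CPM in FL and 9.17, 10.4 and 8.38 CPM in GM cultures, a log2 difference of 2.43 (SE 0.33, adjusted p = 5.51e-06). Cd80 stood at 162, 178 and 203 CPM in FL cultures and differed by 1.83 (SE 0.20, adjusted p = 4.90e-07), and Cd86 at 319, 274 and 325 CPM with a difference of 1.595 (SE 0.15, adjusted p = 5.63e-08). Icosl, at 134, 108 and 119 CPM, differed by 1.13 (SE 0.27, adjusted p = 0.00215).

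Of the inhibitory genes Cd200 was higher, by 1.90 (SE 0.23, adjusted p = 1.69e-06), and Cd276 was lower, at 1.49, 1.598 and 1.06 CPM in FL and 3.71, 5.88 and 4.91 CPM in GM cultures, by -1.80 (SE 0.36, adjusted p = 0.000409). The PD-1 ligands did not pass in the model of all 24 libraries, with Cd274, whose FL libraries all stood above the GM ones at t0, at 0.32 (95% interval -0.23 to 0.87, adjusted p = 0.362) and Pdcd1lg2, at 32.01, 30.5 and 39.5 CPM in FL and 49.8, 52.5 and 44.1 CPM in GM cultures, at -0.52 (95% interval -1.12 to 0.071, adjusted p = 0.152). In a fit to the t0 libraries alone both passed, Cd274 higher at 0.27 (adjusted p = 0.0151) and Pdcd1lg2 lower at -0.57 (adjusted p = 0.00343). Without culture 91 Pdcd1lg2 was lower in FL cultures at t0, at -0.48 (adjusted p = 0.0334). Among 17262 genes tested 23.4% were higher and 17.5% lower in FL cultures. The cultures differ in cytokines, in age, in culture number and in their marker content, and these cannot be told apart here. All GM libraries carry a single culture number, so p-values between the culture types include no spread between GM culture numbers. At t0 the macrophage markers summed to 19120.0 to 24490.0 CPM in GM and 777 to 953 CPM in FL libraries, and the neutrophil markers to 270.1 to 327 and 1225 to 4175 CPM.

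In DMSO the same comparison called 5 genes higher and Cd276 lower, beside 20.0% and 21.4% of all genes. Cd80 differed by 2.32 (SE 0.21, adjusted p = 2.98e-08), Cd86 by 1.49 (SE 0.15, adjusted p = 1.73e-07), Cd200 by 1.03 (SE 0.23, adjusted p = 0.00117), Cd40 by 0.99 (SE 0.31, adjusted p = 0.0154), Cd274 by 0.97 (SE 0.27, adjusted p = 0.00653) and Cd276 by -1.65 (SE 0.37, adjusted p = 0.00121). Icosl at -0.016 (95% interval -0.57 to 0.54, adjusted p = 0.969) and Pdcd1lg2 at 0.20 (95% interval -0.39 to 0.80, adjusted p = 0.596) did not pass. The calls of Cd40 and Cd274 rested on the DMSO library of FL culture 91: without it they were 0.26 (adjusted p = 0.352) and 0.33 (adjusted p = 0.116). Cd40 was lost too without replicate 1 of GM DMSO, at 0.84 (adjusted p = 0.0761). In a fit to the compared groups alone, Cd40, Cd274 and Cd276 were not called. Without culture 91 Pdcd1lg2 was lower in FL cultures, at -0.47 (adjusted p = 0.0374).

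The change from t0 to DMSO in FL cultures, less that in GM cultures, did not pass the test for any of the 8 genes by edgeR, although 3 had an unadjusted p under 0.05. These were Cd40 at -1.44 (95% interval -2.36 to -0.52, adjusted p = 0.0656), Icosl at -1.14 (95% interval -1.93 to -0.36, adjusted p = 0.0903) and Cd200 at -0.88 (95% interval -1.54 to -0.21, adjusted p = 0.128). Of all genes 0.881% had a higher and 3.96% a lower value. The paired fit with the replicate block called all 3, at -1.65 (adjusted p = 0.00373), -1.18 (adjusted p = 0.0138) and -0.94 (adjusted p = 0.0498), and without the DMSO library of culture 91 they were -2.17 (adjusted p = 7.05e-05), -1.35 (adjusted p = 0.0338) and -1.29 (adjusted p = 0.00186). DESeq2 called Cd40 alone.

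As a ratio to DMSO, the FL response to 0.05 µM was smaller than the GM response to 0.1 µM for Cd80 and Cd86. Of all genes 0.967% had a higher and 0.707% a lower value. The DMSO levels differed: mean Cd80 went from 51.45 to 185.2 CPM in GM cultures and from 257.0 to 399.9 CPM in FL cultures. Mean Cd86 went from 116.9 to 408.1 CPM in GM cultures and from 327.7 to 646.2 CPM in FL cultures. On the CPM scale the rise was thus not smaller in FL cultures. Cd80 rose 3.78-fold in GM cultures and stood 1.55-fold higher in FL cultures, where it did not pass the test, and the difference of log2 responses was -1.21 (95% interval -1.79 to -0.63, adjusted p = 0.0293). For Cd86 the folds were 3.67 and 1.97 and the difference -0.82 (95% interval -1.26 to -0.39, adjusted p = 0.0481). Cd200, at -0.72 (95% interval -1.39 to -0.061, adjusted p = 0.325), did not pass. The doses differ, so dose and culture type cannot be told apart. In a fit to the compared groups alone neither call held (adjusted p = 0.18 for Cd80 and 0.194 for Cd86). Both calls were lost without replicate 1 or 2 of GM DMSO, replicate 1 or 2 of GM 0.1 µM, the DMSO library of culture 95 or the treated library of culture 91, at adjusted p-values up to 0.108 for Cd80 and 0.17 for Cd86. That of Cd86 was lost too without replicate 3 of GM DMSO (adjusted p = 0.0902), the DMSO library of culture 94 (0.0773) or its treated library (0.0606).

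Genes around these signals were read from lists of related function. Of 18 CD40 signalling genes, the TRAF adaptors, NF-kB subunits, kinases and inhibitors downstream of CD40, 15 rose and none fell at 1 µM in GM cultures (median log2 difference 0.78), and 1 rose in FL cultures. Over all genes 26.9% were higher and 28.2% lower in that GM comparison and 1.62% and 1.28% in the FL one. Nfkbia, the inhibitor IkB-alpha, rose 3.43-fold at 1 µM (adjusted p = 3.09e-09) and 3.09-fold in FL cultures (adjusted p = 0.0208). Tnfaip3, which encodes the NF-kB inhibitor A20, rose 3.74-fold at 1 µM (adjusted p = 5.65e-09), with 2.90-fold and an adjusted p of 0.108 in FL cultures. Nfkb2, the non-canonical subunit, rose 2.66-fold at 1 µM (adjusted p = 7.37e-09), and Traf3, which holds NIK low, had a log2 difference of 1.17 (adjusted p = 2.72e-08) there and 0.90 (adjusted p = 0.169) in FL cultures. The list already stood 16 of 18 higher in GM DMSO than at t0, beside 27.2% of all genes.

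Of the 7 genes for receptors of these signals, 5 passed the low-count filter in GM cultures, where 2 rose and 2 fell at 1 µM, beside 26.9% and 28.2% of all genes. Rgmb, which encodes a binding partner of PD-L2, rose 2.61-fold (adjusted p = 9.66e-09). Cd28, at 23.0 ± 4.57 CPM in DMSO and 3.77 ± 0.689 CPM at 1 µM (SD, n = 3 each), fell with Cd200r1, by 2.50 on the log2 scale (adjusted p = 1.85e-08). Pdcd1, the gene of PD-1, rose by 2.52 (adjusted p = 8.49e-07) from 1.42 ± 0.424 CPM (SD, n = 3). Cd40lg and Ctla4 did not pass the filter, and none of the 5 tested receptors passed the test in FL cultures, where Pdcd1 was at -0.64 (adjusted p = 0.338), Rgmb at 0.43 (adjusted p = 0.316) and Cd28 at -1.24 (adjusted p = 0.436).

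Of 16 other co-stimulatory and checkpoint surface genes 9 rose and 3 fell at 1 µM in GM cultures, where 26.9% and 28.2% of all genes did. Tnfsf4, the gene of OX40 ligand, rose from 54.1 ± 8.53 to 455 ± 48.4 CPM (SD, n = 3 each), a log2 difference of 3.19 (adjusted p = 3.01e-11). Tnfsf9, the gene of 4-1BB ligand, rose 8.86-fold there (adjusted p = 2.55e-09) and 7.41-fold in FL cultures (adjusted p = 0.00396), and Pvr, a ligand of DNAM-1 and TIGIT, rose 5.59-fold in GM cultures (adjusted p = 9.89e-12). In FL cultures Cd70, the CD27 ligand, rose with Tnfsf9, from 2.96 ± 1.62 to 33.2 ± 11.5 CPM (SD, n = 3 each) and 11.2-fold (adjusted p = 0.011), and no other gene of the list passed, with Cd1d1, which presents lipids, at 1.31 (adjusted p = 0.0771).

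The other B7 and butyrophilin genes were mostly not expressed, with 2 of 7 past the filter in GM cultures. Vsir, the gene of the inhibitory B7 protein VISTA, fell from 369 ± 37.1 to 38.7 ± 3.26 CPM (SD, n = 3 each) at 1 µM, by 3.15 on the log2 scale (adjusted p = 2.45e-12) in the libraries whose macrophage markers were lower. Btnl9, a butyrophilin-like gene, had a log2 difference of -1.68 (adjusted p = 0.252). In FL cultures Vsir was at -1.11 (adjusted p = 0.237), Btnl2 at -1.24 (adjusted p = 0.629) and Btnl9 at 0.30 (adjusted p = 0.933).

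Of 9 interferon-gamma and JAK-STAT genes, which act upstream of Cd274 in many cells, 4 rose and 2 fell at 1 µM, and the share that fell was no higher than the 28.2% of all genes (26.9% rose). Irf1, a transcription factor, rose 3.05-fold (adjusted p = 4.25e-10), while Ifngr1, an interferon-gamma receptor chain, fell by 1.92 on the log2 scale (adjusted p = 4.30e-11). In FL cultures none of the 9 passed, with Irf1 at 1.49 (adjusted p = 0.13), Ifngr1 at -0.86 (adjusted p = 0.119) and Jak2 at -0.34 (adjusted p = 0.667).

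Genes that set how long CD86 and PD-L1 stay at the surface moved in both directions, 3 of 6 up and 3 down at 1 µM, beside 26.9% and 28.2% of all genes. Marchf1, the ubiquitin ligase that removes CD86 and MHC class II from the surface, fell from 114 ± 10.7 to 44.6 ± 5.69 CPM (SD, n = 3 each), by 1.25 on the log2 scale (adjusted p = 6.63e-08). Cmtm4, which stabilises PD-L1, fell by 0.93 (adjusted p = 7.06e-06) and Cop1, a ubiquitin ligase, rose 1.41-fold (adjusted p = 2.31e-05). In FL cultures none passed, with Marchf1 at -2.58 (adjusted p = 0.106), Cmtm4 at -0.69 (adjusted p = 0.235) and Marchf8 at -0.36 (adjusted p = 0.331).

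**Figure D5:**
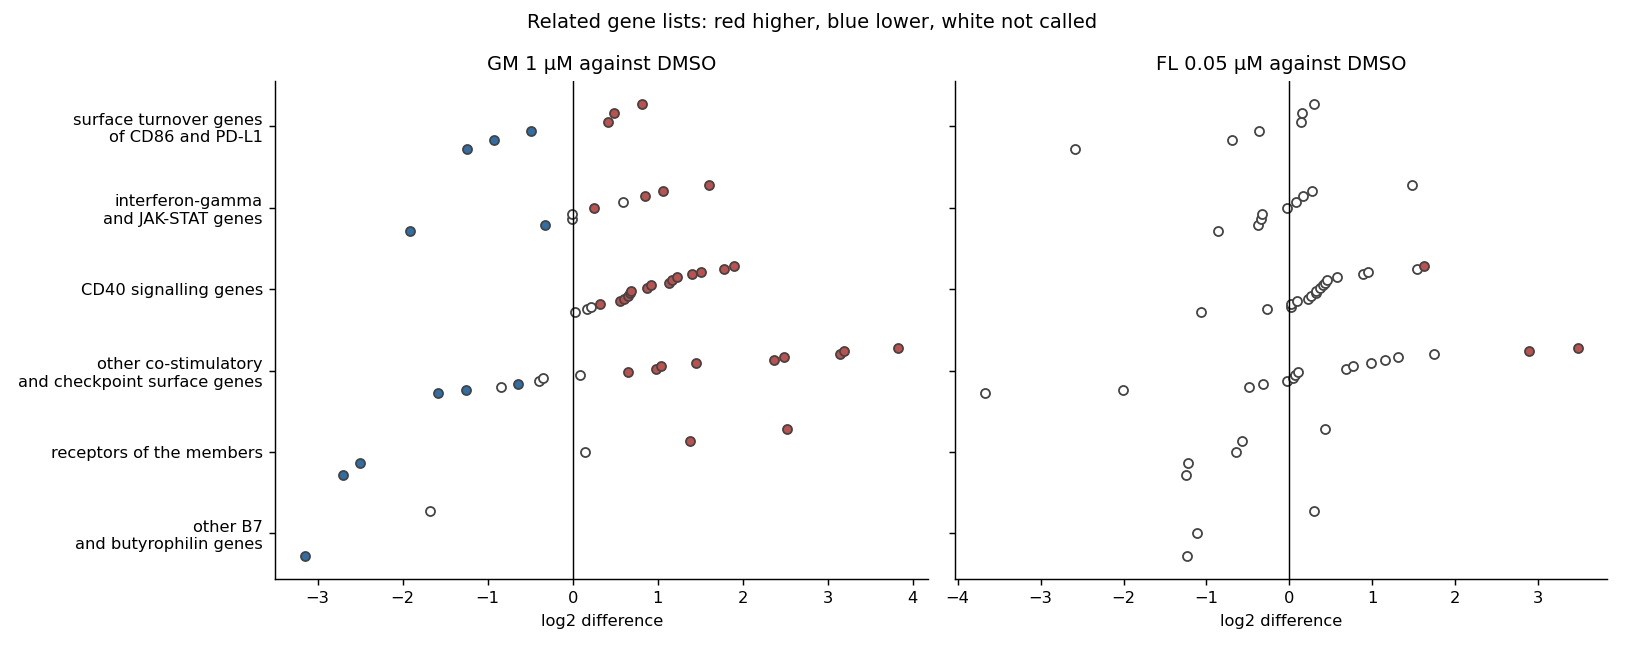
Log2 difference of each tested gene of 6 related lists, at 1 µM against DMSO in GM cultures (left) and at 0.05 µM against DMSO in FL cultures (right), in red where higher, blue where lower and white where not called. In GM cultures 15 of 18 CD40 signalling genes are higher, and in FL cultures the called genes are Nfkbia, Tnfsf9 and Cd70.

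Across all 24 libraries the 8 genes fell into patterns of different shape. The Pearson correlation of log2 CPM was 0.986 between Cd40 and Cd200, 0.964 between Cd80 and Cd86 and 0.933 between Cd40 and Cd274, but 0.623 between the PD-1 ligands and between -0.395 and 0.281 between Icosl and each other gene. These values describe 24 libraries that share groups, cultures and depth, and carry no test. Among 9530 protein-coding genes that averaged 10 CPM or more in some group, those most like each gene over these libraries were found in the same way. For Cd40 they were Glipr2 (r = 0.994), Net1 (r = 0.991), Rhebl1 (r = 0.989), for Cd200 Dusp14 (r = 0.995), Zc2hc1a (r = 0.989) and for Cd274 Frs2 (r = 0.975), Ncoa5 (r = 0.974), Daam1 (r = 0.974). Cd80 was closest to Plek2 (r = 0.991), Tlcd1 (r = 0.970), Pla1a (r = 0.969) and Cd86 to Pla1a (r = 0.973), Ikzf4 (r = 0.966), Ndrg2 (r = 0.965), so that Pla1a stood among the 3 nearest of both. For Icosl they were Orai2 (r = 0.905), Brd1 (r = 0.868), Dnaaf3 (r = 0.865), for Pdcd1lg2 Maea (r = 0.874), Tgoln1 (r = 0.857), Sgpl1 (r = 0.857) and for Cd276 Mmp2 (r = 0.914), Ptgir (r = 0.908), Il11ra1 (r = 0.905).

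In the order of group means, the lowest level of Cd40, Cd80, Cd86, Icosl, Cd274 and Cd200 was at t0 in GM cultures. The highest mean of Cd40, Cd80, Cd86 and Cd274 was at 0.05 µM in FL cultures, at 498 ± 183, 399.9 ± 105.3, 646 ± 66.2 and 813 ± 190.3 CPM (SD, n = 3 each). For each of these 4 genes its range overlapped that of the next group below, GM cultures at 1 µM for Cd40 and Cd86 and at 0.5 µM for Cd80 and Cd274. Cd200 was highest in GM cultures at 0.5 µM (593 ± 27.4 CPM, SD, n = 3), overlapping 1 µM. Icosl was highest in GM DMSO (146 ± 19.5 CPM, SD, n = 3), where it overlapped both FL DMSO and FL 0.05 µM. Pdcd1lg2 was lowest in FL cultures at t0, below the GM libraries at t0, and its other 7 groups overlapped from neighbour to neighbour. Cd276 held its 3 lowest means in the FL groups, all below the GM libraries, and no neighbouring GM groups stood apart.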

How the data were processed

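The 24 mRNA libraries were made with a strand-preserving kit and read on a NovaSeq6000 according to the labels' protocols. The values are counts of reads per Ensembl gene, as deposited by the authors in 1 file per library. Per the submitters' processing notes the tools were STAR 2.7.3a, HTSeq 0.12.4 and DESeq2 1.30.1 with genome GRCm39, with annotation release and strand setting not given in the sources used here. Lines that name no gene (10.98% to 16.42% of each file's total) were left out. Of 55414 gene IDs, 52133 were named from a GRCm38 annotation, used for names, biotypes and exon lengths only.

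Counts were fitted with edgeR 4.0.16 in R 4.3.3 (TMM scaling, filterByExpr, robust quasi-likelihood test, Benjamini-Hochberg adjustment over all genes tested, called at an adjusted p under 0.05). GM contrasts used 15 GM libraries (16152 genes tested), FL contrasts 9 FL libraries (15961) and contrasts between culture types all 24 (17262). Biological coefficients of variation came to 0.146, 0.39 and 0.272 in turn, so FL contrasts resolve less than GM ones. Intervals are 95% intervals of the fitted log2 difference. The procedure was also run on simulated counts, drawn independently for each library without differences between cultures. Those runs therefore do not show how the fits treat such differences. DESeq2 1.42.0 was an alternative, with other scaling, filters, sets of libraries, the replicate block and each library left out.

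FL cultures with the same number deviated together in 9 of 9 pairs (correlation 0.135 to 0.689), so culture numbers pair FL samples and the blocked value is printed where it changed a call or moved a count over 1.5 times. Genes named from the related lists are the 3 with the smallest p per list at 1 µM in GM cultures and at 0.05 µM in FL cultures. For likeness, Pearson's r of log2 CPM (prior count 2) was used, and the 3 genes with the highest r were named. Of the genes so selected, 2 are not reported here. The 8 genes, the lists and the tests were chosen with earlier results of these data known. Promoter sequences are RefSeq's on GRCm38.p6 and were matched by symbol.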

Additional observations from a re-analysis of the deposited data

Results flagged for a closer look

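The response of Cd80 to AZD5582 differed between the culture types, with a log2 difference of -1.21 between the FL response at 0.05 µM and the GM response at 0.1 µM (adjusted p = 0.0293 by the quasi-likelihood test of edgeR, Benjamini-Hochberg adjusted). Cd80 was 3.78-fold higher in GM cultures with the drug and 1.55-fold in FL cultures, where all 3 cultures moved up and the change did not pass the test. For Cd86 the same difference was -0.824 (adjusted p = 0.0481). Both genes already stood higher in FL than in GM cultures in DMSO, and their rise in CPM was not smaller in FL cultures. Dose and culture type cannot be told apart in either, and the calls depend on single libraries as given in the results.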

How the results depend on the processing

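Every comparison was refitted with median-of-ratios scaling, with DESeq2, without the filter on low counts, with the compared groups only, in the 24-library model, with the replicate block where the compared groups share numbers, and without each library in turn. Scaling by library totals and leaving out FL culture 91 were added after seeing the data. Over 1344 values of the 8 genes, 1155 kept their direction and their side of the threshold, 70 lost a call, 33 gained one and 86 changed sign. Of the sign changes, 1 had an adjusted p under 0.05 in either fit, Pdcd1lg2 in FL against GM cultures in DMSO at -0.47 without culture 91. The sign changes listed here are those of values the text gives. No call of the 8 genes at 0.1, 0.5 or 1 µM against DMSO in GM cultures, from t0 to DMSO in GM cultures, or between culture types at t0 was lost under any of these alternatives. The cause of the other changes was not tested.

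Without TMM, scaling by library totals shifted the median of all genes by -0.228 on the log2 scale at 1 µM in GM cultures, more than in any other comparison. It turned Pdcd1lg2 at 0.1, 0.5 and 1 µM to -0.0032, -0.077 and -0.11, none called. In GM DMSO against t0 Cd80 became -0.16, and -0.036 with median-of-ratios scaling, -0.036 with DESeq2, -0.022 with no filter and -0.044 in the compared groups only. Icosl at 0.05 µM in FL cultures became 0.016, 0.016 and 0.0077 with median-of-ratios scaling, DESeq2 and no filter. Icosl in FL against GM cultures in DMSO became 0.072, 0.072, 0.0026, 0.031 and 0.098 with the same 3, the compared groups only and library totals. Without culture 91, Pdcd1lg2 at 0.05 µM became 0.27 and Cd276 in FL DMSO against t0 0.18.

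The model that held all 24 libraries called 3874 genes at 0.1 µM in GM cultures against 6503, and 85 genes and 0 members from 0.1 to 0.5 µM against 1849 and 4. It called 4 members and 2721 genes at 0.05 µM in FL cultures, and 4 and 5307 from t0 to DMSO. It turned Pdcd1lg2 at 0.5 µM to -0.0045. With the compared groups only, 0 members and 31 genes were called at 0.05 µM, 0 and 582 in FL DMSO against t0, 3 and 3866 in FL against GM cultures in DMSO, and 0 and 17 in the difference of responses, and 261 genes in the difference of changes in DMSO. DESeq2 called 8 genes from 0.5 to 1 µM, 1526 at 0.05 µM against 463, 3503 in FL DMSO against t0 against 1619, 646 in the difference of responses against 289, and 1 member in the difference of changes in DMSO. With no filter 77 genes were called from 0.5 to 1 µM, 503 in the difference of changes in DMSO, and 1 member and 187 genes in the difference of responses. Library totals gave 1 member in the difference of changes and 1 in that of responses.

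Other calls of single genes moved too. From 0.1 to 0.5 µM Cd80 was lost with the compared groups only, at 0.68 (adjusted p = 0.11), and Icosl passed with no filter at -0.73 (adjusted p = 3.84e-09). At 0.05 µM Cd40 passed with library totals at 1.87 (adjusted p = 0.0292), and Cd86 in the difference of responses was lost with them at -0.99 (adjusted p = 0.0545) and with no filter at -0.91 (adjusted p = 0.0501).

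The paired fits with the replicate block called 1098 genes at 0.05 µM in FL cultures, 3107 in FL DMSO against t0, 1685 genes and 3 members in the difference of changes in DMSO, and 738 genes in the difference of responses. GM replicates share only a number: the correlation of deviations was positive in all 30 pairs (0.01 to 0.226) and over 0.1 in 7 of them. With that replicate block Cd276 at 0.1 µM passed at 0.54 (adjusted p = 0.0444) and Icosl from 0.1 to 0.5 µM at -0.73 (adjusted p = 0.0218), and the block changed no other call of a value given here beside those in the results. Without culture 91, 5 members and 2283 genes were called at 0.05 µM, 1 member in FL DMSO against t0, 3 members and 2596 genes in the difference of changes, and 800 genes in the difference of responses.

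Leaving out each library in turn gave 0 to 5 members and 1062 to 1737 genes from 0.1 to 0.5 µM, 0 to 1 genes from 0.5 to 1 µM, 0 to 4 members and 17 to 1983 genes at 0.05 µM, 0 to 2 and 13 to 1454 in FL DMSO against t0, 0 to 3 and 486 to 1869 in the difference of changes, and 0 to 2 and 93 to 591 in the difference of responses. The uncalled values that changed sign ran from -0.28 to 5.5e-05 for Icosl at 0.1 µM, -0.044 to 0.23 for Pdcd1lg2 at 0.5 µM, and -0.32 to 0.28 and -0.34 to 0.22 for Cd276 at 0.5 and 1 µM. They ran from -0.050 to 0.034 for Cd80 in GM DMSO against t0, -0.24 to 0.25 for Icosl and -0.63 to 0.40 for Pdcd1lg2 at 0.05 µM, -0.55 to 0.14 for Cd276 in FL DMSO against t0, and -0.22 to 0.15 and -0.48 to 0.50 for Icosl and Pdcd1lg2 in FL against GM cultures in DMSO. Depth limits Cd276 most, since its 3 libraries per group together held between 127 counts (FL DMSO) and 907 counts (GM t0).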
